A study of Mus musculus with 11 samples.

Results

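The 10 genes described here, Atf4, Atf5, Ddit3, Trib3, Ddit4, Sesn2, Chac1, Asns, Psat1 and Phgdh, encode ATF4, related stress factors and targets of the amino acid response. They were chosen by name as members of the integrated stress response, with earlier results of these data known. Their counts beside those of all genes tested therefore describe them and are not independent tests. Their Ensembl identifiers were found through the GRCm38 annotation, which gave 10 of the 54838 genes counted. All 10 had more than 1 CPM (counts scaled to a common library total) in at least 4 libraries, and so stood among the 16073 genes tested. E14 mouse embryonic stem cells (ESCs) were grown with LIF, serum replacement and non-essential amino acids, and given a scrambled control siRNA or siRNA 1 or siRNA 2 against CMTR1, the enzyme that methylates the ribose of the opening nucleotide of capped RNA. Total RNA was taken at 36 h and depleted of ribosomal RNA, and directional libraries were made from 3 control, 4 siRNA 1 and 4 siRNA 2 samples. The methods of the study give 3 biological replicates for sequencing, while the labels number up to 4 samples per group without saying whether they were separate cultures, so the p-values measure the spread between samples as labelled.

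The integrated stress response starts from kinases that phosphorylate the translation factor eIF2 when amino acids run short, unfolded proteins build up in the endoplasmic reticulum (ER), haem is lacking or viral RNA is present. Most translation then slows, while mRNAs with short upstream reading frames, that of Atf4 among them, are translated more. ATF4 protein in turn switches on genes for amino acid synthesis and uptake, tRNA charging, redox balance and, under lasting stress, cell death. In bulk RNA, fewer cells making a transcript and less of the transcript in each cell cannot be told apart.

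Cmtr1 itself (ENSMUSG00000024019; chromosome 17, 29660595 to 29705979) was read first as a check of the labels. The control libraries had 21.3, 21.7 and 17.9 CPM, followed by 21.1, 21.3, 16.2 and 18.0 CPM in the siRNA 1 libraries and 15.6, 16.8, 16.5 and 19.5 CPM in the siRNA 2 libraries. Both siRNA groups overlapped control, and the log2 fold changes of −0.09 (adjusted p = 0.743) and −0.25 (95% interval −0.46 to −0.04, unadjusted p = 0.0257, adjusted p = 0.144) did not pass the test. Of its exon bases, 36.3% are shared with other genes on the same strand and 47.2% with a gene on the other strand. It had 110 to 176 reads per library, and the part of these overlaps in that count was not tested. Since this count did not show the targeted mRNA clearly reduced, the groups are the libraries labelled siRNA 1 and siRNA 2. Directions below are those between labels. Depth was alike between groups. The control libraries held 7876141, 8107684 and 7429926 counted reads. The siRNA libraries held from 6738478 to 8382318.

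In control cells the members spanned a wide range of expression when scaled to exon length. Atf4 was the most abundant, at 74.5 ± 1.33 CPM per kb (SD, n = 3), followed by Asns at 51.5 ± 1.42. Sesn2 (42.9 ± 3.36) and Psat1 (42.8 ± 2.50) came next and overlapped each other, with Phgdh (35.5 ± 2.58) and Ddit4 (20.5 ± 0.677) below them. The lower end held Atf5 (11.8 ± 1.10), Trib3 (10.4 ± 1.74) and Chac1 (7.10 ± 1.57), where Trib3 overlapped both of its neighbours, and then Ddit3 (3.09 ± 0.430).

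With siRNA 1, the members that changed all fell: Atf4, Trib3, Chac1, Asns and Psat1, 5 of 10, where 4.67% of all genes tested passed the same threshold (FDR of at most 0.05) and 1.97% passed it as lower. In these 5 genes, each of the 4 siRNA 1 libraries lay below all 3 control libraries, which held for 6.23% of all genes tested. All 10 log2 fold changes were below 0, with a median of −0.22 against 0.02 for all genes tested, of which 43.2% were below 0. Without control replicate 2 the count of members called was 3, and it was 4 without control replicate 3, siRNA 1 replicate 1 or siRNA 1 replicate 2. Over all genes tested the calls went from 751 to 355, 447, 527 and 424 in the same order.

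With siRNA 2, Trib3 was the member that fell, 1 of 10, beside 9.72% of all genes tested that were called and 3.55% that were called as lower. Atf4, Trib3, Chac1 and Asns had every siRNA 2 library below every control library, 4 of 10 members where 6.99% of all genes tested did so. The median log2 fold change of the members was −0.08, against 0.03 for all genes tested, and it was −0.13 without control replicate 1 and −0.05 without control replicate 2. Of the 10 log2 fold changes 9 were below 0, and 8 without control replicate 2 or siRNA 2 replicate 4. The count of 1 is not stable: it was 3 with TMM factors, which added Atf4 and Chac1, and 2 without control replicate 1, which added Chac1. Both comparisons share the control libraries, so their values are given side by side and not as independent results.

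The direct comparison of siRNA 2 with siRNA 1, in which control libraries enter through the filter and the dispersion and not through the means, put all 10 members higher with siRNA 2, with a median log2 difference of 0.13 against 0.00 for all genes tested. Sesn2 and Ddit3 turned to below 0 without siRNA 1 replicate 3, as did Sesn2 without siRNA 2 replicate 2 and Ddit3 without siRNA 2 replicate 3. A single member, Psat1, passed the test, as higher, where 7.44% of all genes tested passed and 4.49% passed as higher. Psat1 and Phgdh had every siRNA 2 library above every siRNA 1 library, 2 of 10 members beside 6.58% of all genes tested. The count of members called was 0 without siRNA 1 replicate 1 or 2 and 2, with Atf4 added, without siRNA 1 replicate 3 or 4 or siRNA 2 replicate 3. The edgeR test on all 11 libraries had 5 members at an unadjusted p under 0.05. The mean of both siRNAs against control averages the fold changes of siRNA 1 and siRNA 2, so it is not independent of either. In it 5 members fell, the same genes by name as with siRNA 1, beside 6.91% of all genes tested called and 2.72% called as lower. Those calls for Asns and Psat1 were near the threshold (adjusted p = 0.0493 and adjusted p = 0.0492), and the count was 2 without control replicate 3 and 3 without control replicate 2, siRNA 1 replicate 1, 2 or 4 or siRNA 2 replicate 1, 2 or 3. It was 4, with Asns lost, without control replicate 1 and with no filter.

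**Figure D1:**
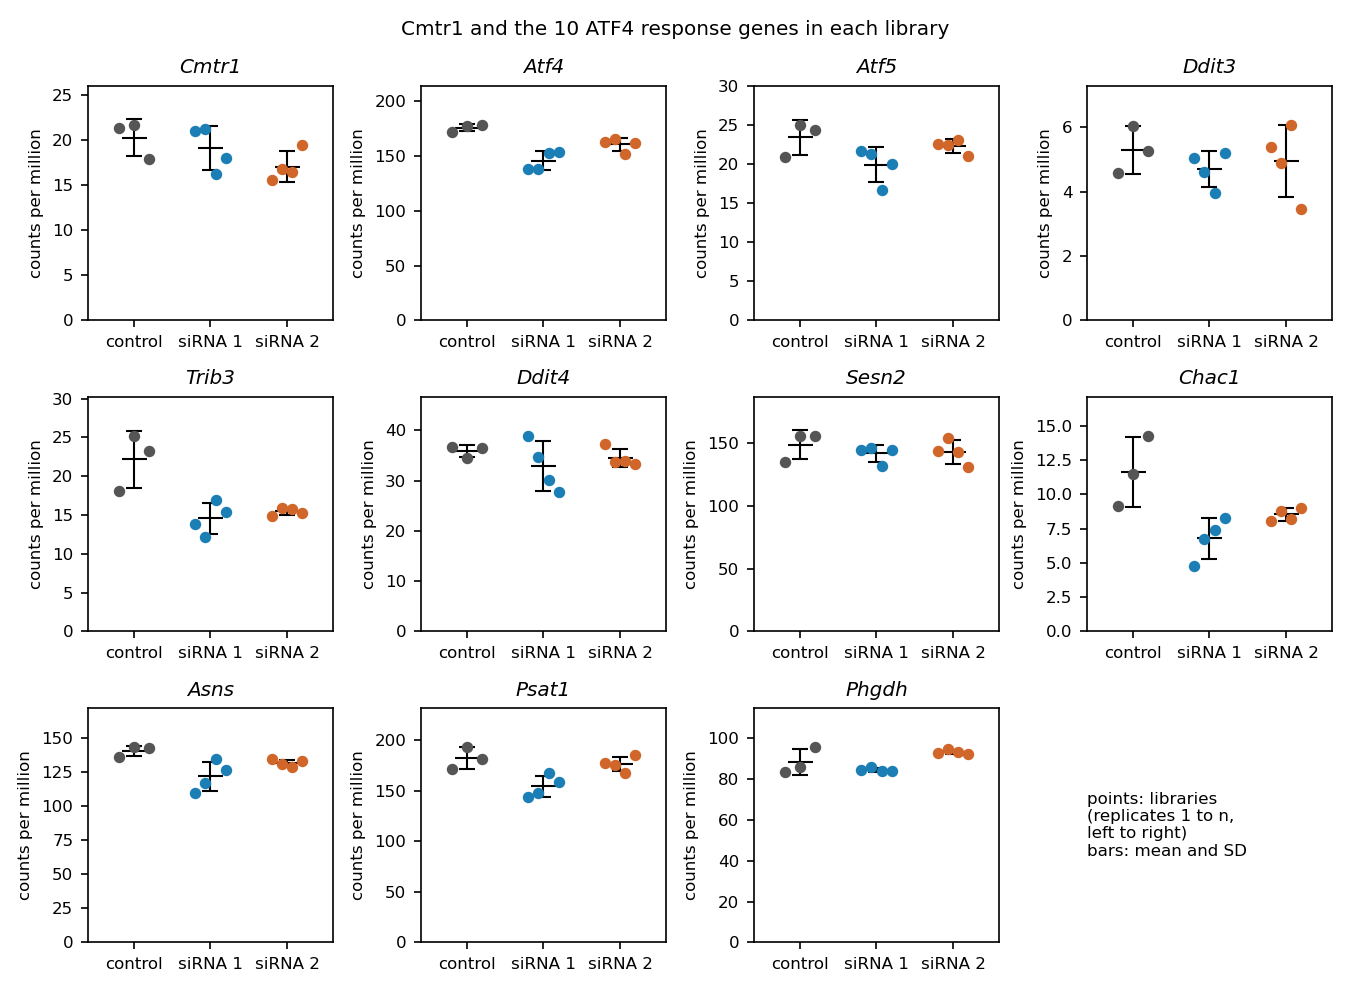
CPM of Cmtr1 and the 10 genes in each library, with 1 panel per gene, points for libraries and bars for the mean and SD of each group. In the Trib3 panel the siRNA libraries sit between 12.2 and 16.9 CPM and the control libraries between 18.0 and 25.2 CPM.

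**Figure D2:**
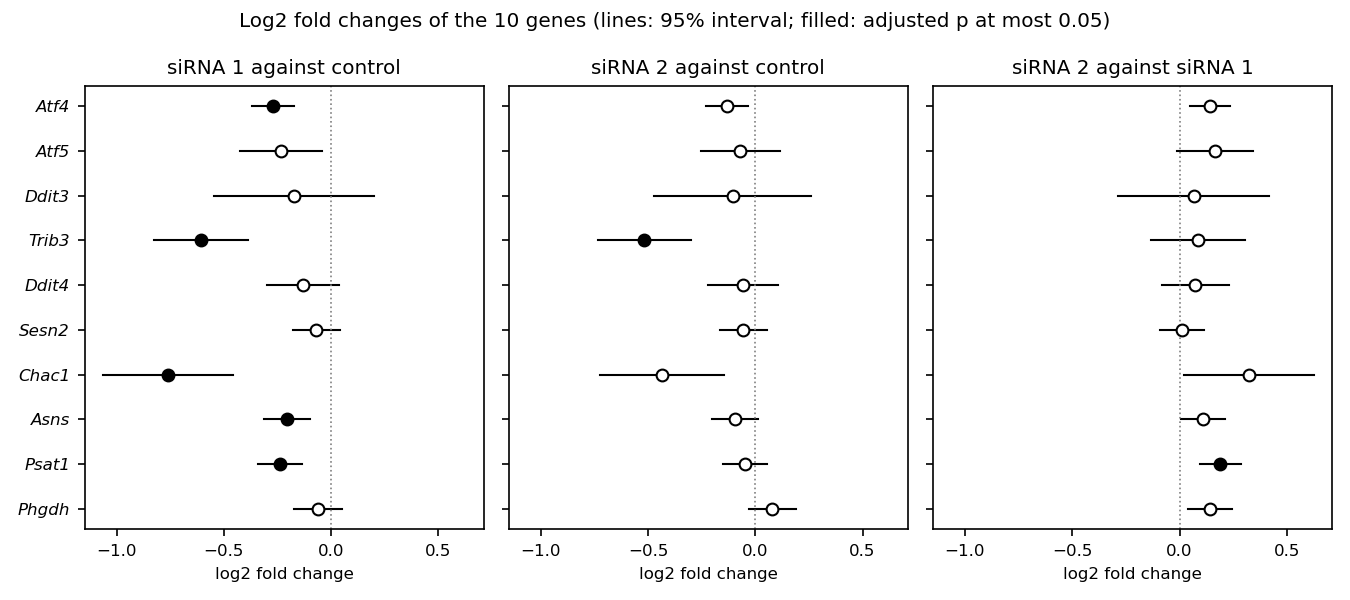
Log2 fold change of each gene in 3 comparisons, with lines for the 95% interval and filled points where the adjusted p was at most 0.05. Filled points are Atf4, Trib3, Chac1, Asns and Psat1 for siRNA 1, Trib3 for siRNA 2, and Psat1 for siRNA 2 against siRNA 1.

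Of the transcription factors, Atf4 (ENSMUSG00000042406; chromosome 15, 80255184 to 80257541), the central factor of the response, had control values of 172, 177 and 178 CPM. The siRNA 1 libraries had 138, 138, 152 and 154 CPM, and the siRNA 2 libraries 163, 165, 152 and 162 CPM. Every siRNA library was below every control library, with siRNA 1 replicates 1 and 2 the lowest, and the siRNA groups overlapped each other. The mean went from 176 ± 3.14 CPM (SD, n = 3) to 146 ± 8.52 (n = 4) with siRNA 1, which is 82.8% of control (log2 fold change −0.27, 95% interval −0.37 to −0.17, adjusted p = 0.000431). This call held under each alternative run, with adjusted p-values up to 0.00685. With siRNA 2 the mean was 160 ± 5.77 CPM (log2 fold change −0.13, 95% interval −0.23 to −0.03, adjusted p = 0.0912), short of the threshold, although TMM factors brought it to −0.16 (adjusted p = 0.0451; range over its alternatives 0.0451 to 0.240). The difference between the siRNAs was 0.14 (adjusted p = 0.0573). It passed without siRNA 1 replicate 3 (0.16, adjusted p = 0.0383), siRNA 1 replicate 4 (0.17, adjusted p = 0.0463) or siRNA 2 replicate 3 (0.17, adjusted p = 0.0257), in a range of 0.0257 to 0.223. These are mRNA levels, and ATF4 protein, which is set largely by translation, was not measured.

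Atf5 (ENSMUSG00000038539; chromosome 7, 44812256 to 44816658) encodes a related bZIP factor that is also under translational control. Its libraries ran from 20.9 to 25.0 CPM in control, 16.8 to 21.7 CPM with siRNA 1 and 21.1 to 23.2 CPM with siRNA 2, so that both siRNA groups overlapped control. The log2 fold changes were −0.23 (95% interval −0.42 to −0.04, adjusted p = 0.180) and −0.07 (adjusted p = 0.718). Over the alternatives they ran from −0.310 to −0.159 with siRNA 1 and from −0.145 to −0.018 with siRNA 2. Ddit3 (ENSMUSG00000025408; chromosome 10, 127290774 to 127296288), which encodes the pro-death factor CHOP, was counted at only 28 to 49 reads per library. It ran from 4.57 to 6.04 CPM in control, 3.96 to 5.21 with siRNA 1 and 3.46 to 6.07 with siRNA 2. Its intervals, −0.54 to 0.20 and −0.47 to 0.26, span 0 and are wide enough to hold the log2 fold change of Atf4. Its direction with siRNA 2 (−0.11) turned to 0.01 without control replicate 2 and to 0.04 without siRNA 2 replicate 4.

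Trib3 (ENSMUSG00000032715; chromosome 2, 152337422 to 152344032) encodes a pseudokinase that ATF4 induces and that restrains ATF4 in return. The control libraries had 18.0, 25.2 and 23.3 CPM. The siRNA 1 libraries had 13.8, 12.2, 16.9 and 15.4 CPM, and the siRNA 2 libraries 14.9, 15.9, 15.8 and 15.3 CPM. All 8 siRNA libraries were below the lowest control library, and the control libraries spread more widely than those of siRNA 2. The mean fell from 22.2 ± 3.70 CPM (SD, n = 3) to 14.6 ± 2.02 (n = 4) with siRNA 1 and to 15.5 ± 0.440 (n = 4) with siRNA 2. These are 65.7% and 69.9% of control, with log2 fold changes of −0.61 (95% interval −0.82 to −0.39, adjusted p = 0.000408) and −0.52 (−0.73 to −0.30, adjusted p = 0.00133). Trib3 was the member called with both siRNAs, and it was called under each alternative run, with adjusted p-values up to 0.0209 and 0.0380. Its difference between the siRNAs was 0.09 (95% interval −0.13 to 0.31, adjusted p = 0.720), and ran from 0.007 to 0.169 over the alternatives.

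Ddit4 and Sesn2, which both hold back the growth regulator mTORC1 when nutrients or energy are short, did not pass the test in any of the 4 comparisons. Ddit4 (ENSMUSG00000020108; chromosome 10, 59949669 to 59951834) stayed between 34.5 and 36.7 CPM in control and 33.3 and 37.2 CPM with siRNA 2. With siRNA 1 it spread over 38.9, 34.8, 30.1 and 27.7 CPM, on both sides of control, with a log2 fold change of −0.13 (95% interval −0.30 to 0.04, adjusted p = 0.466). That fold change ran from −0.215 to −0.058 over its alternatives. Sesn2 (ENSMUSG00000028893; chromosome 4, 132492032 to 132510501), which encodes a leucine-binding protein, ran from 135 to 156 CPM in control, 132 to 147 with siRNA 1 and 131 to 155 with siRNA 2. Its log2 fold changes were −0.07 (95% interval −0.18 to 0.04, adjusted p = 0.588) and −0.06 (−0.17 to 0.05, adjusted p = 0.595). In the edgeR test on all 11 libraries, the 95% intervals of Sesn2 leave room for a fall of at most 0.18 on the log2 scale, well short of that of Trib3. Over the alternatives its log2 fold change ran from −0.133 to −0.035 with siRNA 1 and from −0.120 to −0.015 with siRNA 2.

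Chac1 (ENSMUSG00000027313; chromosome 2, 119351229 to 119354381) encodes an enzyme that breaks down glutathione and is among the most inducible targets of ATF4 and CHOP. The control libraries had 9.14, 11.5 and 14.3 CPM. The siRNA 1 libraries had 4.75, 6.73, 7.40 and 8.29 CPM, and the siRNA 2 libraries 8.10, 8.83, 8.22 and 9.01 CPM. Each siRNA library was below each control library, though the highest siRNA 2 library came close to control replicate 1. From 32 to 106 reads per library, the mean fell from 11.6 ± 2.57 CPM (SD, n = 3) to 6.79 ± 1.50 (n = 4) with siRNA 1, which is 59.1% of control and the lowest log2 fold change of the members (−0.76, 95% interval −1.06 to −0.46, adjusted p = 0.00140). With siRNA 2 the mean was 8.54 ± 0.449 CPM, a log2 fold change of −0.44 (95% interval −0.72 to −0.15) with an adjusted p of 0.0514. That value lies at the threshold, and Chac1 was called in 7 of its 14 alternatives. Over these the adjusted p ran from 0.0138 without control replicate 1 (log2 fold change −0.58) to 0.390 without control replicate 3 (−0.27), the ends of the range of the log2 fold change. For the mean of both siRNAs the log2 fold change was −0.60 (adjusted p = 0.00267), and −0.43 without control replicate 3 (adjusted p = 0.114; range 0.000204 to 0.114).

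The promoters of the 10 members were searched for the core of the C/EBP-ATF response element, TGATGNAA, on both strands. Chac1, Asns and Trib3, 3 of the 10, held it within 250 bases before to 50 bases after a RefSeq start site, while Atf4 and Psat1, which also fell with siRNA 1, did not. It was present in 3.97% of all 32851 RefSeq windows of that length. This share is by window, while the members are counted by gene and had 12 windows. The cAMP response element TGACGTCA was in the windows of 0 of the 10 members and in 1.79% of all windows. In Trib3 the match lies 15 to 22 bases after the start. The upstream matches stand in capitals, with the flanking bases in lower case, read 5′ to 3′ along the gene (RefSeq, GRCm38.p6). In Chac1 (chr2:119351003-119351102, plus strand) the match is on the opposite strand, at bases −193 to −186 from the start, so the capitals show its complement read along the gene. In Asns (chr6:7693210-7693278, minus strand) it lies on the strand of the gene, at −23 to −16.
Chac1: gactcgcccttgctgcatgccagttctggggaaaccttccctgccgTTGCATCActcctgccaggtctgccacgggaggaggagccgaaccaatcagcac
Asns: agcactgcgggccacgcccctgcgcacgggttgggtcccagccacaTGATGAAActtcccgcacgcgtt
A match of letters is a description of these windows, and binding was not measured in them.

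Asns (ENSMUSG00000029752; chromosome 6, 7675169 to 7693254), which makes asparagine from aspartate and glutamine, gave control values of 136, 144 and 143 CPM. With siRNA 1 it gave 110, 118, 135 and 127 CPM, and with siRNA 2 135, 131, 129 and 133 CPM. All siRNA libraries were below control, by a narrow margin for siRNA 1 replicate 3 and siRNA 2 replicate 1. The mean fell from 141 ± 3.90 CPM (SD, n = 3) to 122 ± 10.7 (n = 4) with siRNA 1 (log2 fold change −0.20, 95% interval −0.31 to −0.10, adjusted p = 0.0194). With siRNA 2 it was 132 ± 2.50 CPM (log2 fold change −0.09, adjusted p = 0.298). The siRNA 1 call was lost without control replicate 2 (adjusted p = 0.117), control replicate 3 (adjusted p = 0.0876), siRNA 1 replicate 1 (adjusted p = 0.109) or siRNA 1 replicate 2 (adjusted p = 0.0932), in a range of 0.00301 to 0.117.

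The serine synthesis enzymes Phgdh and Psat1 act one after the other on the path from a glycolytic intermediate to serine. Psat1 (ENSMUSG00000024640; chromosome 19, 15904678 to 15947337) had control values of 172, 193 and 182 CPM. Those of siRNA 1 were 144, 148, 167 and 158 CPM, and those of siRNA 2 were 177, 175, 167 and 185 CPM. The siRNA 1 libraries were below all the others, and those of siRNA 2 overlapped control. The mean fell from 182 ± 10.6 CPM (SD, n = 3) to 154 ± 10.4 (n = 4) with siRNA 1 (log2 fold change −0.24, 95% interval −0.34 to −0.14, adjusted p = 0.00340) and was 176 ± 7.05 (n = 4) with siRNA 2 (−0.05, adjusted p = 0.627). The siRNA 1 call was lost without control replicate 2 (adjusted p = 0.0771; range 0.000524 to 0.0771). Psat1 was 0.19 higher with siRNA 2 than with siRNA 1 on the log2 scale (95% interval 0.09 to 0.29, adjusted p = 0.0109), a call lost without siRNA 1 replicate 1 (adjusted p = 0.0594) or siRNA 1 replicate 2 (adjusted p = 0.0623), in a range of 0.00294 to 0.0623. Phgdh (ENSMUSG00000053398; chromosome 3, 98313170 to 98339990) was at 83.4, 86.0 and 95.6 CPM in control, a range that held all 8 siRNA libraries. The siRNA 1 libraries lay between 83.9 and 86.0 CPM and the siRNA 2 libraries between 92.4 and 94.8 CPM, apart from each other (log2 difference 0.14, adjusted p = 0.0902).

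**Figure D3:**
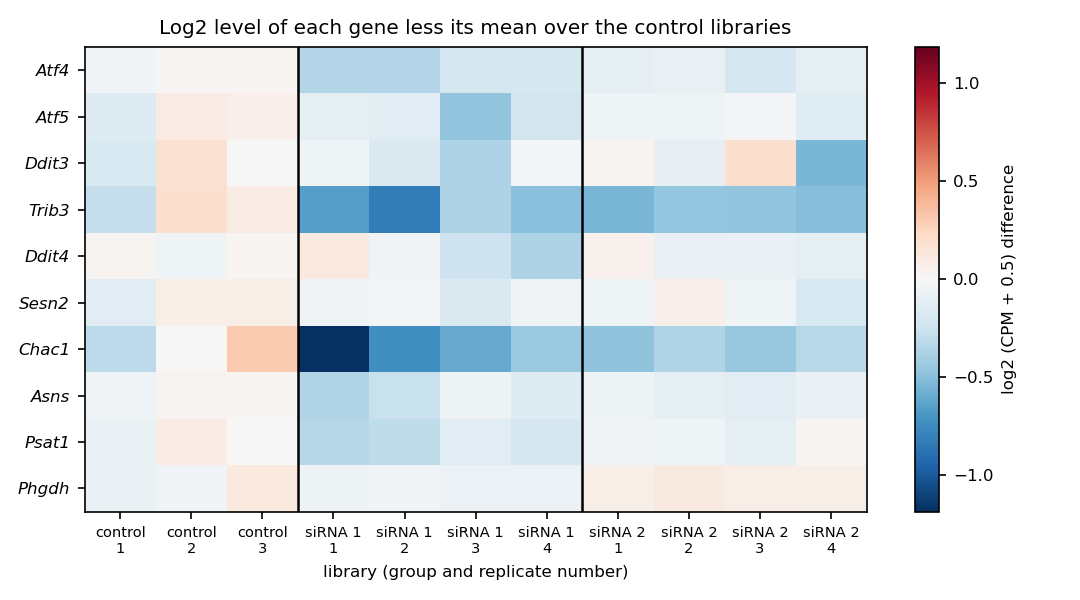
Log2 of CPM plus 0.5 for each gene and library, less the mean of that gene over the 3 control libraries, in blue where lower and red where higher. The Trib3 and Chac1 rows are blue in all 8 siRNA libraries.

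The libraries were also ordered by the mean of the 10 members, each standardized over the 11 libraries. That mean was 0.02, 1.04 and 1.15 in the control libraries. It was −0.77, −0.72, −0.80 and −0.54 in the siRNA 1 libraries, and 0.32, 0.34, 0.16 and −0.20 in the siRNA 2 libraries. On this scale the siRNA 1 libraries were the lowest of all, and the siRNA 2 libraries lay between, overlapping control replicate 1. Members differed in how closely they followed the rest. Pearson's r with the mean of the other 9 over the 11 libraries was 0.81 for Atf4 and 0.80 for Chac1, and 0.18 for Ddit4, the lowest. These values describe 11 libraries in 3 groups that differ in level. Outside the group, the genes most like the member mean among 10890 compared were Cipc (r = 0.967), Klf5 (0.937), Epop (0.927), Slc1a4 (0.909) and Pml (0.904). Cipc encodes a repressor of the circadian clock protein CLOCK, Klf5 a pluripotency factor, Epop a partner of Polycomb complexes, Slc1a4 a carrier of small neutral amino acids and Pml the scaffold of PML bodies.

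Genes that act with the members were read from 8 lists, which were also chosen with earlier results of these data known. The lists hold 95 genes in all, none of them a member, of which 94 were tested. With siRNA 1, 17 fell and 1 rose, with siRNA 2, 14 fell and 5 rose, and between the siRNAs 11 were higher and 2 lower with siRNA 2. These are 18, 19 and 13 of 94, beside 4.67%, 9.72% and 7.44% of all genes tested. With TMM factors the counts were 22, 20 and 13. Counts of single lists below are to be read beside the same shares of all genes tested, and some lie near or under them. Beside 521, 958 and 740 of all genes tested, DESeq2 called 18, 15 and 7 of the 94. Their median log2 fold change was −0.10 with siRNA 1, where that of all genes tested was 0.02, and −0.04 with siRNA 2, where it was 0.03. Over all genes tested the balance of directions moves with scaling. The calls were 316 lower and 435 higher with siRNA 1 in total-count scaling, 400 and 346 with TMM factors, and 322 and 199 in DESeq2. With siRNA 2 they were 571 lower and 991 higher, 734 and 728 with TMM factors, and 549 and 409 in DESeq2.

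**Figure D4:**
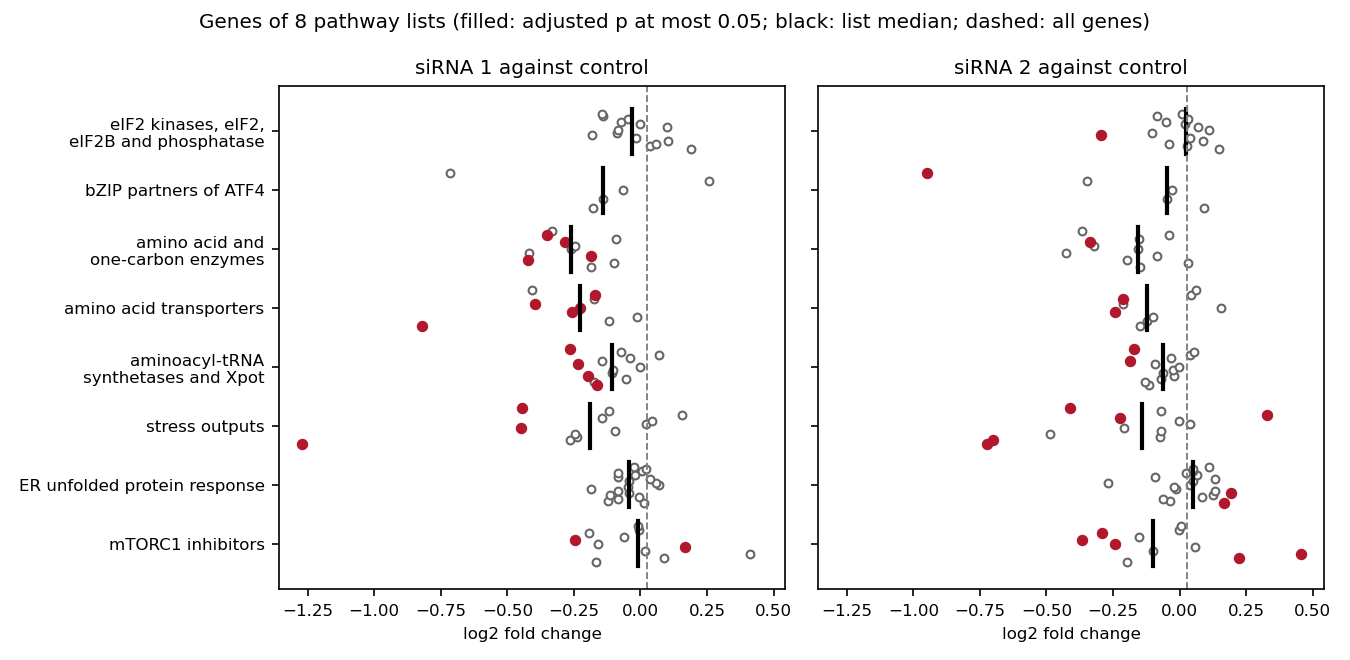
Log2 fold changes of the genes of the 8 lists against control, with filled points for an adjusted p of at most 0.05, black bars for list medians and a dashed line for the median of all genes tested. The lists of amino acid enzymes and transporters have medians of −0.26 and −0.23 with siRNA 1.

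Upstream of ATF4, the list of eIF2 kinases, eIF2 and eIF2B subunits and eIF2 phosphatase subunits had medians of −0.03 with siRNA 1 and 0.02 with siRNA 2, the latter −0.0001 with TMM factors and −0.0038 in DESeq2. By the edgeR quasi-likelihood test, 0 of 14 genes were called with siRNA 1, where 3 had an unadjusted p under 0.05, TMM factors called 2 and DESeq2 called 1. With siRNA 2, 1 of 14 was called, beside 9.72% of all genes tested. That gene, Eif2s2, the beta subunit of eIF2, fell from 337 to 274 CPM (log2 fold change −0.30, adjusted p = 0.00109), with all 4 libraries below control. Between the siRNAs 2 of 14 were called, beside 7.44% of all genes tested. Ppp1r15b, the constitutive subunit of the eIF2 phosphatase (0.15, adjusted p = 0.0262), and Eif2b1, a subunit of the exchange factor for eIF2 (0.19, adjusted p = 0.0304), were higher with siRNA 2. Both of these calls were lost without siRNA 1 replicate 1 or 2 or siRNA 2 replicate 1 or 2. That of Ppp1r15b was also lost without siRNA 2 replicate 4, and that of Eif2b1 without siRNA 1 replicate 4 and in DESeq2. Their adjusted p-values ran up to 0.116 for Ppp1r15b and 0.108 for Eif2b1. Among the bZIP partners of ATF4, 0 of 5 were called with siRNA 1 in edgeR (1 at an unadjusted p under 0.05, and 0 with TMM factors or DESeq2). Jdp2 fell with siRNA 2 from 2.82 to 1.46 CPM (−0.95, adjusted p = 0.0197), a call lost without control replicate 2 or 3 or siRNA 2 replicate 4 (adjusted p up to 0.110). Cebpd was lower with siRNA 2 than with siRNA 1 (−0.60, adjusted p = 0.0135), a call lost without siRNA 1 replicate 1 or siRNA 2 replicate 1 (adjusted p up to 0.0744).

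Amino acid and mitochondrial folate enzymes were below 0 in 11 of 11 genes with siRNA 1 and 10 of 11 with siRNA 2, with medians of −0.26 and −0.16. With siRNA 1, 4 of 11 fell, beside 1.97% of all genes tested called as lower. Mthfd2, a mitochondrial folate enzyme that supplies formate for purines, went from 80.8 to 60.1 CPM (log2 fold change −0.42, adjusted p = 0.000146), with all 4 libraries below control, and was called under each alternative. Cth, which releases cysteine from cystathionine, fell from 48.0 to 37.6 CPM (−0.35, adjusted p = 0.00346), a call lost without control replicate 2 (adjusted p = 0.0689, the highest of its alternatives). Mthfd1l, another mitochondrial folate enzyme (−0.19, adjusted p = 0.0169), lost its call without control replicate 1 or 2 or siRNA 1 replicate 3 or 4, with adjusted p up to 0.0767. Gpt2, the mitochondrial alanine aminotransferase (−0.29, adjusted p = 0.0217), lost it without control replicate 2 or 3 or siRNA 1 replicate 2 or 4, with adjusted p up to 0.187. With siRNA 2, 1 of 11 was called, beside 9.72% of all genes tested. That gene, Gpt2, fell from 46.4 to 36.7 CPM (−0.34, adjusted p = 0.00315), and it was called under each alternative. The list had 4 calls in DESeq2 and 5 with TMM factors for siRNA 1, and 1 and 3 for siRNA 2. Cth was 0.31 higher with siRNA 2 than with siRNA 1 (adjusted p = 0.00464) under each alternative. Mthfd2 was 0.22 higher (adjusted p = 0.0368), and 0.14 higher without siRNA 1 replicate 1. Its call was lost in DESeq2 and without siRNA 1 replicate 1 or 2 or siRNA 2 replicate 1, 2 or 4 (adjusted p up to 0.228).

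Amino acid transporters were below 0 in 9 of 9 genes with siRNA 1, with a median of −0.23, and 5 of 9 fell. Slc1a4 went from 39.9 to 30.4 CPM (log2 fold change −0.40, adjusted p = 0.000838), Slc7a3, a carrier of cationic amino acids, from 176 to 147 CPM (−0.26, adjusted p = 0.00364), and Slc38a2, a sodium-coupled carrier of neutral amino acids, from 747 to 663 CPM (−0.17, adjusted p = 0.00604). Each of these had all 4 siRNA 1 libraries below control and was called under each alternative. Slc7a1, the widely expressed arginine and lysine carrier, fell from 125 to 107 CPM (−0.23, adjusted p = 0.0272), a call lost without control replicate 2 or 3 or siRNA 1 replicate 1 or 2 (adjusted p up to 0.254). The other was Slc7a11, the cystine carrier, named after its values were seen (4.44 to 2.50 CPM, log2 fold change −0.82, adjusted p = 0.0305). It lost its call without control replicate 3 (log2 fold change −0.54) or siRNA 1 replicate 2 (adjusted p up to 0.326). With siRNA 2 the median was −0.12, 6 of 9 were below 0 and 2 of 9 fell, beside 3.55% of all genes tested called as lower. For siRNA 1 DESeq2 called 4 and TMM factors 5, and for siRNA 2 they called 3 and 4. Slc7a3 reached 149 CPM (−0.24, adjusted p = 0.00332) and was called under each alternative. Slc1a5, a glutamine carrier, fell from 81.3 to 70.1 CPM (−0.21, adjusted p = 0.0299) and lost its call without control replicate 1 or 3 or siRNA 2 replicate 1 or 2 (adjusted p up to 0.184). The direct comparison separated the siRNAs at 3 of 9 genes, all higher with siRNA 2, beside 4.49% of all genes tested called as higher. Slc7a1 stood at 139 CPM with siRNA 2 against 107 with siRNA 1 (log2 difference 0.38, adjusted p = 1.83e-05) and Slc38a2 at 769 against 663 CPM (0.21, adjusted p = 0.000130), both with all libraries apart and under each alternative. Slc6a9, a glycine carrier, stood at 10.2 against 7.35 CPM (0.47, adjusted p = 0.0209), a call lost in DESeq2 and without siRNA 1 replicate 1 or 2 or siRNA 2 replicate 4 (adjusted p up to 0.0901).

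The aminoacyl-tRNA synthetases, which charge tRNAs, and Xpot, which exports tRNAs from the nucleus, had medians of −0.11 and −0.06. With siRNA 1, 4 of 13 fell: Xpot from 279 to 232 CPM (log2 fold change −0.26, adjusted p = 0.000277), and the asparaginyl, glycyl and alanyl enzymes Nars (−0.23, adjusted p = 0.00424), Gars (−0.20, adjusted p = 0.0148) and Aars (−0.16, adjusted p = 0.0242). Xpot was called with siRNA 1 under each alternative. Without control replicate 2 the calls of Nars (adjusted p = 0.0605), Gars (0.117) and Aars (0.224) were lost, each the highest of its alternatives. Those of Gars and Aars were also lost without control replicate 3 or siRNA 1 replicate 1, and that of Aars without siRNA 1 replicate 2. With siRNA 2, 2 of 13 fell, the seryl enzyme Sars (180 to 158 CPM; −0.18, adjusted p = 0.00947) and Xpot (247 CPM; −0.17, adjusted p = 0.0141). Both were lost without control replicate 2 (adjusted p = 0.0824 and adjusted p = 0.123, the highest of their alternatives), and Xpot without control replicate 3. DESeq2 and TMM factors each called 6 of this list for siRNA 1, and for siRNA 2 they called 3 and 2. Between the siRNAs 1 of 13 was called, beside 7.44% of all genes tested. Gars was 0.18 higher with siRNA 2 than with siRNA 1 (adjusted p = 0.0157), a call lost without siRNA 1 replicate 1 or siRNA 2 replicate 2 or 4 (adjusted p up to 0.103).

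Outputs of lasting stress had 12 of 13 genes tested, Fgf21 being below the filter at no more than 0.508 CPM, and medians of −0.19 with siRNA 1 and −0.14 with siRNA 2. With siRNA 1, 3 fell. Nupr1, a small chromatin-associated stress protein, went from 5.81 to 2.39 CPM (log2 fold change −1.27, adjusted p = 0.000199), the lowest log2 fold change of the 8 lists, with all libraries below control. Vegfa, the angiogenic growth factor, went from 23.3 to 17.1 CPM (−0.45, adjusted p = 0.00760), and Herpud1, a component of ER-associated degradation, from 17.9 to 13.1 CPM (−0.45, adjusted p = 0.0123). The call of Vegfa was lost without control replicate 3 (adjusted p = 0.0824, the highest of its alternatives), and that of Herpud1 without control replicate 2 or siRNA 1 replicate 2 (adjusted p up to 0.193). With siRNA 2, 4 fell and 1 rose, beside 9.72% of all genes tested called. The gene that rose was Tnfrsf10b, the death receptor that CHOP can induce, from 56.6 to 71.0 CPM (0.33, adjusted p = 0.000528), under each alternative. Vegfa fell to 17.5 CPM (−0.41, adjusted p = 0.00854), a call lost without control replicate 3 (adjusted p = 0.0846, the highest of its alternatives). Bcl2l11, which encodes the pro-death protein BIM, fell from 80.0 to 68.5 CPM (−0.22, adjusted p = 0.0116), and lost its call without control replicate 1 or 2 or siRNA 2 replicate 1 (adjusted p up to 0.0853). Nupr1 fell to 3.46 CPM (−0.72, adjusted p = 0.0171), lost without control replicate 3 or siRNA 2 replicate 1 (adjusted p up to 0.220). Vldlr, a lipoprotein receptor named after its values were seen, fell from 5.82 to 3.56 CPM (−0.70, adjusted p = 0.0235). The call was lost without control replicate 2 (log2 fold change −0.41) or siRNA 2 replicate 1 or 2 (adjusted p up to 0.333). For siRNA 1 DESeq2 called 2 and TMM factors 3, and for siRNA 2 each called 5. Between the siRNAs edgeR called 0 of 12, where 4 had an unadjusted p under 0.05, and also 0 with TMM factors or DESeq2.

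The chaperones and sensors of the ER unfolded protein response had medians of −0.04 with siRNA 1 and 0.05 with siRNA 2. With siRNA 1 edgeR called 0 of 19, where 3 had an unadjusted p under 0.05, and also 0 with TMM factors or DESeq2. With siRNA 2, where 9.72% of all genes tested were called, 2 of 19 rose in total-count scaling and 0 with TMM factors or DESeq2: Hspa5, the main ER chaperone (607 to 682 CPM; log2 fold change 0.17, adjusted p = 0.0206), and its partner Dnajb11 (65.7 to 75.2 CPM; 0.19, adjusted p = 0.0312). Hspa5 also lost this call with replicate number as a block (0.13, adjusted p = 0.0585; range 0.00211 to 0.111) and without control replicate 1 or 2 or siRNA 2 replicate 4. Dnajb11 also lost it with no filter on low counts and without control replicate 1, 2 or 3 or siRNA 2 replicate 1 (adjusted p up to 0.149). Compared directly, 3 of 19 genes were higher and 1 lower with siRNA 2 than with siRNA 1, beside 7.44% of all genes tested called. Dnajb11 (0.24, adjusted p = 0.00500) was called under each alternative. Hspa5 (0.15, adjusted p = 0.0262) and Dnajc3, an inhibitor of eIF2 kinases (0.22, adjusted p = 0.0369), lost their calls in DESeq2 and without siRNA 1 replicate 1 or 2 or siRNA 2 replicate 4. Hspa5 also lost it without siRNA 2 replicate 3, and Dnajc3 without siRNA 1 replicate 3 or siRNA 2 replicate 1 or 2 (adjusted p up to 0.168 for Hspa5 and 0.166 for Dnajc3). Sdf2l1, an ER protein of the same response, was lower (−0.33, adjusted p = 0.0398), a call lost in DESeq2, with no filter, and without any 1 of the 8 siRNA libraries other than siRNA 2 replicate 2 (adjusted p up to 0.143).

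Other inhibitors of mTORC1 moved both ways, with medians of −0.01 and −0.10. With siRNA 1, 2 of 11 were called, beside 4.67% of all genes tested. With siRNA 1, Akt1s1, which encodes the mTORC1 subunit PRAS40, fell from 45.2 to 38.2 CPM (log2 fold change −0.24, adjusted p = 0.0277), a call lost with no filter and without control replicate 1 or 2 or siRNA 1 replicate 2 or 4 (adjusted p up to 0.145). Tsc2, which switches off the mTORC1 activator Rheb, rose from 195 to 219 CPM (0.17, adjusted p = 0.0225), a call lost with TMM factors, in DESeq2 and without control replicate 1, 2 or 3 or siRNA 1 replicate 1, 2 or 4 (adjusted p up to 0.105). With siRNA 2, 3 of 11 fell and 2 rose, beside 9.72% of all genes tested called. Akt1s1 fell to 35.0 CPM (−0.37, adjusted p = 0.000326) under each alternative. Deptor, an mTOR-binding inhibitor, fell from 60.1 to 50.6 CPM (−0.24, adjusted p = 0.0139), lost without control replicate 2 or 3 or siRNA 2 replicate 1 (adjusted p up to 0.0794). Nprl3, which encodes a subunit of the GATOR1 complex and was named after its values were seen, also fell (−0.29, adjusted p = 0.0470). Its call was lost in DESeq2, with the replicate block and without any control replicate or siRNA 2 replicate 1, 3 or 4 (adjusted p up to 0.150). Sesn3, a relative of Sesn2, rose from 63.0 to 73.6 CPM (0.22, adjusted p = 0.0271) in total-count scaling, a call lost with TMM factors, in DESeq2 and without control replicate 2 or 3 or siRNA 2 replicate 1 or 2 (adjusted p up to 0.128). Ddit4l, a relative of Ddit4, rose from 8.05 to 11.1 CPM (0.46, adjusted p = 0.0294), lost in DESeq2 and without any control replicate or siRNA 2 replicate 1 or 2 (adjusted p up to 0.163). DESeq2 and TMM factors each called 1 of this list for siRNA 1, and for siRNA 2 they called 2 and 4. Between the siRNAs edgeR called 0 of 11, where 3 had an unadjusted p under 0.05, and also 0 with TMM factors or DESeq2.

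The 10 markers of ESC identity, of which Pou5f1 was the most abundant in each group, summed to 2087, 2203 and 2136 CPM in the control libraries. They summed to 1763, 1818, 1951 and 1890 CPM in the siRNA 1 libraries and to 1891, 1922, 1859 and 1943 CPM in the siRNA 2 libraries. Every siRNA library was below every control library, and the siRNA 2 libraries lay within the range of the siRNA 1 libraries. With siRNA 1, 7 of the 10 markers fell, beside 1.97% of all genes tested called as lower, and with siRNA 2, 5 fell (Esrrb, Fgf4, Klf4, Nanog and Zfp42), beside 3.55%. Esrrb was also lower with siRNA 2 than with siRNA 1, a call lost in DESeq2 and without siRNA 1 replicate 2, 3 or 4 or siRNA 2 replicate 1 or 2. Genes named from the marker lists were chosen after their values were seen. Fibroblast markers summed to 30.0 ± 3.57 CPM (SD, n = 3), 31.3 ± 1.64 (n = 4) and 40.1 ± 2.53 (n = 4) in control, siRNA 1 and siRNA 2. With siRNA 2, Col1a1 and Dcn rose and Col3a1 fell (3 calls, of which DESeq2 made 1), and Col1a1 and Dcn were also higher than with siRNA 1, while Lum was at 0 in 8 of 11 libraries. Markers of 2-cell-like cells, a rare state of ESC cultures, summed to 14.6 ± 0.559, 14.2 ± 1.73 and 22.4 ± 1.87 CPM, and Zscan4d and Usp17la rose with siRNA 2 (2 calls, of which DESeq2 made 1), with Zscan4c and Zscan4d higher than with siRNA 1. Neural markers summed to 102 ± 3.93, 111 ± 4.98 and 104 ± 9.75 CPM, with Map2 higher with siRNA 2 in total-count scaling but not with TMM factors or DESeq2, and Pax6 lower with siRNA 2 than with siRNA 1. With siRNA 1, edgeR, TMM factors and DESeq2 called 0 genes of the fibroblast, 2-cell-like and neural lists, with 1, 0 and 2 at an unadjusted p under 0.05. Endoderm, mesoderm and trophoblast markers summed to 42.3, 12.2 and 36.7 CPM in control, with Dab2, Kdr and Tfap2c the most abundant. With siRNA 1 they summed to 41.6, 13.1 and 40.7 CPM and with siRNA 2 to 41.0, 11.5 and 30.5 CPM, and in edgeR 0 of their genes were called against control, while Tfap2c was lower with siRNA 2 than with siRNA 1. At an unadjusted p under 0.05 these last 3 lists had 0, 0 and 1 genes with siRNA 1 and 0, 1 and 2 with siRNA 2, and TMM factors and DESeq2 called 0. The part of these shifts in the values of the 10 genes was not tested.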

How the data were processed

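The authors deposited counts, whole numbers of reads per Ensembl gene for each of 11 libraries. Per the labels, FastQC, cutadapt, STAR, Picard and featureCounts were used, with builds GRCm38 and mm10 and no versions. Summary lines in 10 of the 11 files name no gene and were set aside: per library, reads in no feature were 42.3 to 47.5% of these and the counted reads together, and ambiguous reads, taken the same way, 1.91 to 2.02%. Of the identifiers, 54809 had a symbol, and 10 of 10 members matched; a second Ddit3 identifier had 0 reads.

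Counts were scaled by total counts to CPM. Genes over 1 CPM in at least 4 libraries went into 1 model of the 3 groups, and the quasi-likelihood test of edgeR 4.0.16 was run in R 4.3.3, with Benjamini-Hochberg adjustment over all 16073 genes tested and calls at 0.05. Intervals are the estimate ± 1.96 SE. DESeq2 1.42.0 was an alternative, as were TMM factors, edgeR's exactTest and library sizes without Gm26917, an abundant transcript. The code was run on simulated counts beforehand. Figures were drawn with matplotlib 3.10.9 and tables made with scipy 1.17.1, pandas 2.3.3 and numpy 2.4.6 under Python 3.11.15.

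The members and lists were chosen with earlier results of these data known. Named genes are the members, Cmtr1, in each of 8 pathway lists up to 4 called genes with the lowest p per comparison, and the 5 genes with mean log2 CPM of at least 2 and an established symbol that correlate best with the mean of the members. The marker lists are 7: ESC, fibroblast, endoderm, mesoderm, neural, trophoblast and 2-cell-like. Promoter windows are from RefSeq (GRCm38.p6), in which 10 of 10 members matched, with 12 windows; both strands were searched for TGATGNAA and TGACGTCA.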

Additional observations from a re-analysis of the deposited data

Results flagged for a closer look

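In groups of 4 libraries, 1 library stood apart from the other 3 when its gap to the nearest passed the 5% critical value of Dixon's ratio, as a share of the whole range of the group. Of 38 such groups tested, 3 met this, and chance alone marks about 1 in 20. They were Ddit4 in the siRNA 2 libraries (0.837 of the range, replicate 1 the highest at 37.2 CPM), Sesn2 in the siRNA 1 libraries (0.865, replicate 3 the lowest at 132 CPM) and the summed endoderm markers in the siRNA 2 libraries (0.930, replicate 4 the lowest at 37.5 CPM).

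Among the 10 members and the 94 tested genes of the 8 pathway lists, 14 differed in the direct test of siRNA 2 against siRNA 1. Of all genes tested, 7.44% were called in that test. DESeq2 called 1 of the 10 members and 7 of the 94. The count of 14 leaves out the marker lists, whose genes called in the same test are named above. Of the 14, 4 (Cth, Dnajb11, Slc38a2 and Slc7a1) kept the call under each alternative and the other 10 lost it under at least 1. The log2 difference was 0.191 for Psat1, the member among them. It was 0.309 for Cth and 0.224 for Mthfd2 among the enzymes, and 0.213 for Slc38a2, 0.468 for Slc6a9 and 0.382 for Slc7a1 among the transporters. It was 0.176 for Gars, 0.194 for Eif2b1 and 0.153 for Ppp1r15b. Among ER chaperone genes it was 0.236 for Dnajb11, 0.218 for Dnajc3, 0.153 for Hspa5 and −0.327 for Sdf2l1, and for the bZIP factor Cebpd it was −0.603.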

How the results depend on the processing

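Under the alternatives, 1536 values of 106 results were recomputed. Of these, 1307 kept their direction and their side of the threshold or, for counts and medians, stayed close to the value reported. A count was taken as moved past a factor of 1.5. Of the rest, 167 were no longer past the threshold, 11 newly passed it, 41 moved and 10 reversed. The cause was not tested. For siRNA 1 the median of the members was −0.2395 with TMM factors and −0.2434 in DESeq2. For siRNA 2 the members called were 3 with TMM factors, and 2 with exactTest, with no filter, with only the 2 groups compared, with the replicate block and with library sizes taken without Gm26917 (4.86 to 6.34% of counted reads); genes called were 958 in DESeq2. For siRNA 2 against siRNA 1, DESeq2 called 740 genes.

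Leaving out single libraries gave 3 to 5 members called for siRNA 1, 1 to 2 for siRNA 2, 0 to 2 for siRNA 2 against siRNA 1 and 2 to 5 for the mean of both. The medians of the members ran from −0.2744 to −0.1862, −0.1325 to −0.05079, 0.1106 to 0.1484 and −0.2002 to −0.1111. Genes called ran from 355 to 850, 807 to 1667, 724 to 1374 and 499 to 1215. The log2 fold change of Ddit3 ran from −0.2171 to 0.0369 for siRNA 2 and from −0.04479 to 0.2092 between the siRNAs, that of Sesn2 between the siRNAs from −0.02681 to 0.05364, and that of Phgdh for the mean of both from −0.03043 to 0.06778, and it was −0.01383 with TMM factors and −0.01789 in DESeq2.

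The replicate numbers do not pair the samples: deviations from group means correlated at a mean r of 0.00243 over 10 pairs with the same number and −0.000822 over the 30 others, with 3 and 7 pairs over 0.1. With replicate number as a block the members called were 5, 2, 1 and 5 in the order above, the medians −0.2197, −0.06196, 0.1266 and −0.1505, and the genes called 840, 1486, 1242 and 1144. DESeq2 gave no adjusted p for Nupr1 or Slc7a11 with siRNA 1 or Jdp2 with siRNA 2. TMM factors moved the median of all genes by at most 0.0248. For the mean of both siRNAs the calls were 437 lower and 673 higher, 573 and 509 with TMM factors, and 446 and 301 in DESeq2. Depth limits Ddit3 (28 to 49 reads per library) most among the members.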
